A study of Mus musculus with 22 samples.

Results

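MHC class I antigen presentation was followed through 10 genes among 33964 genes measured in the choroid plexus (ChP) of adult mice. The 10 genes were named for their role in the pathway, with earlier results of these data known. They are *B2m*, *H2-K1*, *H2-D1*, *H2-T23*, *Tap1*, *Tap2*, *Tapbp*, *Psmb8*, *Psmb9* and *Nlrc5*, and all 10 passed the filter on low counts in every comparison. The study sequenced RNA from 14 pools of ChP tissue, 2 pools (A and B) in each of 7 groups, to ask what the transcription factor OTX2 does in the adult ChP. In the conditional model, *Otx2* lox/lox mice with the strain label S129, aged 3 months, received Cre-Tat, a Cre recombinase that enters cells, or vehicle by injection into the lateral ventricles, and ChP from the lateral ventricles (LV) and the fourth ventricle (4V) was collected 15 days later. Each pool labelled Cre-Tat held tissue of 5 mice and each pool labelled vehicle that of 4 mice, and the vehicle mice carry the lox alleles too. In the constitutive model, 4V ChP came from mice with the strain label B6D2. These mice were wildtype, *Otx2* (+/-), which is the *Otx2*+/GFP heterozygote of the study's methods, or *Otx2* (+/AA), an allele that the sources used here do not describe further. The methods give 4 *Otx2*+/GFP mice and 5 wildtype littermates, aged 3 months, in duplicate samples, and do not say whether the duplicates held different mice. The age and number of the *Otx2*+/AA mice are not given. The AA group and the GFP group share their wildtype pools. The strain and the sequencing run change together with the model, so these cannot be told apart.

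MHC class I molecules show peptides from inside the cell to CD8 T cells. The proteasome cuts proteins into peptides, and the inducible subunits encoded by *Psmb8* and *Psmb9* change where it cuts. The transporter made of TAP1 and TAP2 carries peptides into the endoplasmic reticulum, where tapasin, the product of *Tapbp*, holds it next to an empty class I molecule. A class I molecule is a heavy chain bound to beta-2 microglobulin, the product of *B2m*. *H2-K1* and *H2-D1* encode classical heavy chains and *H2-T23* encodes the non-classical heavy chain Qa-1. *Nlrc5* encodes the transactivator that acts on class I gene promoters, and interferon raises the transcription of most of these genes.

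Of the 10 genes, 8 lie in the MHC and its neighbourhood on chromosome 17. In GRCm38 coordinates from GENCODE vM21 these are *Tapbp* (chr17:33915899-33929292), *H2-K1* (chr17:33996017-34000347), *Psmb9* (chr17:34181987-34187764), *Tap1* (chr17:34187553-34197225), *Psmb8* (chr17:34197721-34201454), *Tap2* (chr17:34203527-34216321), *H2-D1* (chr17:35262730-35267499) and *H2-T23* (chr17:36029773-36032855). *B2m* lies at chr2:122147686-122153083 and *Nlrc5* at chr8:94434356-94527272.

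Class I promoters share a compact block of control elements, and this block is shown because the heavy chains and *B2m* are described together in what follows. RefSeq promoter windows (GRCm38.p6, 250 bases before to 50 bases after a start) were at hand for 8 of the 10 genes, with 9 windows in all since *H2-K1* has a pair of starts. *Tap2* and *Nlrc5* had no window in the table. The *H2-K1* windows overlap each other, and those of *Psmb9* and *Tap1* overlap on opposite strands. Some sites are therefore counted in more than 1 of the 9 windows, which are not separate sequences. Both strands were searched for TGACG (the core of a cyclic AMP response element), ATTGG (the inverted CCAAT letters of a Y box), GGANTNNCC (part of a kappa-B site), GAAANNGAA (the core of an interferon-stimulated response element) and TTCNNNGAA (a gamma-interferon activation site). TGACG was in 6 of the 9 windows and in 17.8% of all 32851 windows in the table. ATTGG was in 8 of 9 windows against 33.8%, and GGANTNNCC in 4 of 9 against 10.8%. GAAANNGAA was in 2 of 9 windows (*B2m* and *H2-T23*) against 7.13%, and TTCNNNGAA in 1 (*Psmb8*) against 7.02%. Other forms of these elements were not searched, so a window without a match may still hold such an element. In *B2m*, *H2-K1* and *H2-D1*, TGACG and ATTGG stood in the same order with exactly 20 bases between them, a spacing that was noticed in these sequences and that 30 of the 32851 windows (0.0913%) hold. The following stretches of 30 bases run from one element to the other, in capitals at each end, at chr2:122147609-122147638 (plus strand), chr17:34000359-34000388 (minus strand) and chr17:35262993-35263022 (plus strand).
*B2m*: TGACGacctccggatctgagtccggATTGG
*H2-K1*: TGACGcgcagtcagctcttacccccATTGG
*H2-D1*: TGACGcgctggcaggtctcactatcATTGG
The heavy chain stretches were identical at 23 of 30 bases. *B2m* was identical to *H2-K1* at 13 bases and to *H2-D1* at 12 bases, of which the capitals make up 10.

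Farther from the start, both classical heavy chain genes carry a kappa-B sequence, shown in capitals, at chr17:34000439-34000468 (minus strand) and chr17:35262913-35262942 (plus strand).
*H2-K1*: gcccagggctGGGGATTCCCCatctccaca
*H2-D1*: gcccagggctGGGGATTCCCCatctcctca
These stretches were identical at 29 of 30 bases. Soon after the kappa-B sequence, the windows of both genes hold cagtttcacttct. On its opposite strand the parts of GAAANNGAA stand in swapped order, a form that the search did not count. The whole *H2-K1* promoter window before its start is chr17:34000348-34000597 on the minus strand. It shows the order of the kappa-B sequence, TGACG and ATTGG, in capitals from left to right, and other elements are not marked.
*H2-K1* promoter: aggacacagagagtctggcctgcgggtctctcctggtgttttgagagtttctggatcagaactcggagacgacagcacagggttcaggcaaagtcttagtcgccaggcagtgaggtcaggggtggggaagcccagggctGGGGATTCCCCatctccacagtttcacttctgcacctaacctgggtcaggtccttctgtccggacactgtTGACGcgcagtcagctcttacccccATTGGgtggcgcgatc
A match of letters is a description of the sequence, and binding was not measured in these data.

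The deposited values are counts of reads on Ensembl transcripts, and each gene is given by its transcript with the most counts. Levels are given in CPM, the read count scaled to library size, here with TMM factors over all 14 pools. Total counts over all transcripts were 22750019 to 50088408 per pool. Of the 16 files of the conditional model, 14 carry a library number that differs from that of the pool they are attached to, and they were joined by library number. Runs joined in this way differed by no more than sampling noise, with a chi-square per degree of freedom of 1.002 to 1.032, against 13.2 to 20.5 as attached. The count over the whole *Otx2* transcript was higher in the pools labelled Cre-Tat and *Otx2*+/GFP than in their controls. *Otx2* was at 391 and 476 CPM in the LV pools labelled vehicle (A and B) and at 1245 and 1016 in those labelled Cre-Tat. In 4V ChP it was at 383 and 392 CPM in the pools labelled vehicle and at 1196 and 1211 in those labelled Cre-Tat. In the constitutive model it was at 362 and 303 CPM in wildtype, 1034 and 884 in *Otx2*+/GFP and 339 and 353 in *Otx2*+/AA. The groups are therefore called by their labels throughout. These counts include the exons outside the one that Cre removes, which was not counted separately here, so they do not check the labels of the conditional model. The methods state that *Otx2* was measured by qPCR in a portion of each ChP of the conditional model, to make sure that it was reduced on average after Cre-Tat. From its sequencing the study also reported fewer reads on a single *Otx2* exon than in controls, after Cre-Tat in both ventricles and in *Otx2*+/GFP. Tissue identity was clear from *Ttr*, the transthyretin of the ChP epithelium, at 60559 to 187842 CPM over the 14 pools.

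The 10 genes spanned a wide range of levels, which can be compared between genes only per length. In the LV pools labelled vehicle the mean levels per kilobase of transcript were 210 CPM for *B2m*, 26.8 for *Tapbp*, 20.9 for *H2-K1*, 10.7 for *H2-D1*, 9.88 for *Tap2*, 4.62 for *Psmb8*, 3.85 for *Tap1*, 2.89 for *H2-T23*, 0.601 for *Psmb9* and 0.131 for *Nlrc5*. The light chain thus stood above each heavy chain, and the transactivator stood lowest. *Psmb9* and *Nlrc5* rested on few reads, 14 to 76 per pool for *Psmb9* and 17 to 108 for *Nlrc5*. The transcript with the most counts is annotated as a retained-intron form for *H2-K1*, *H2-T23*, *Tap1* and *Psmb9* and as protein coding for the other 6 genes, and with the protein-coding transcript of each member the class I genes called in each comparison were the same. Some of these genes share sequence with others. Of all 50-base windows of the transcript, the length of the reads, 8.11% of *H2-K1*, 14.3% of *H2-D1* and 19.7% of *H2-T23* occur in another gene too. The shares were 21% for *Tapbp*, 12.6% for *Tap2*, 5.83% for *Psmb8*, 0.647% for *Tap1* and 0 for *B2m*, *Psmb9* and *Nlrc5*. Exons of *Tapbp* (23.5% of the bases), *Tap2* (19.8%) and *Psmb8* (11.4%) also overlap a gene on the opposite strand, and the strand setting of the counting is not given in the sources used here, so reads of these partners cannot be told apart.

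**Figure D1:**
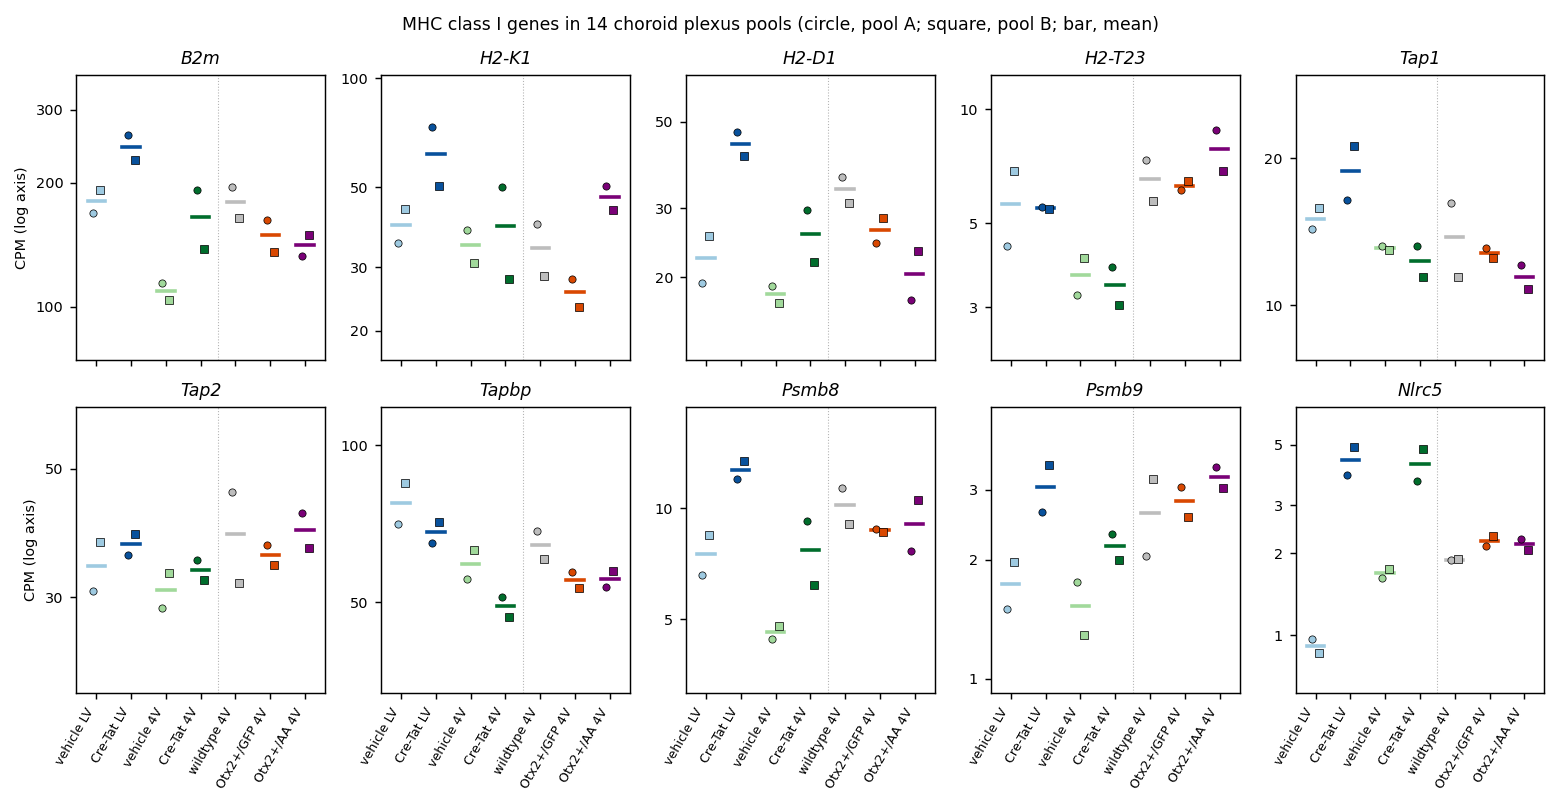
Level of each of the 10 class I genes in the 14 pools, in CPM on a log axis that differs between panels, with pool A as a circle, pool B as a square and the mean of 2 pools as a bar. *Nlrc5* shows the widest gap between pools labelled Cre-Tat (3.67 to 4.91 CPM) and vehicle (0.857 to 1.75 CPM), and *H2-K1* is higher in the *Otx2*+/AA pools (50.5 and 43.2 CPM) than in the *Otx2*+/GFP pools (27.9 and 23.2 CPM).

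In LV ChP, *Nlrc5* and *H2-D1* were higher in the pools labelled Cre-Tat. *Nlrc5*, the class I transactivator, was at 0.968 and 0.857 CPM in the pools labelled vehicle and at 3.88 and 4.91 CPM in those labelled Cre-Tat. These groups lay far apart, with a log2 fold change of 2.28 ± 0.35 (SE, n = 2 pools per group, adjusted p = 0.0023 by the quasi-likelihood test of edgeR, after Benjamini and Hochberg over all genes). *H2-D1*, a classical heavy chain, was at 19.3 and 25.5 CPM against 47.1 and 40.8 CPM, a log2 fold change of 1.00 ± 0.18 (edgeR adjusted p = 0.0073). Thus 2 of 10 class I genes rose and 0 fell, where 2.21% of the 14990 genes tested were called higher and 1.03% were called lower. DESeq2 called the same pair of genes. The median log2 fold change of the 10 genes was 0.57, against 0.00 for all genes tested. With counts scaled by library totals alone, the median of all genes moved to 0.17, and calls split into 396 higher and 48 lower in place of 331 and 155, while both class I genes remained called and *Psmb8* was added.

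The other classical heavy chain, the light chain and the inducible proteasome subunits did not pass the threshold in LV ChP. *H2-K1* was at 34.9 and 43.6 CPM in the pools labelled vehicle and at 73.2 and 50.4 CPM in those labelled Cre-Tat, with a log2 fold change of 0.68 ± 0.19 (edgeR adjusted p = 0.079). *B2m* was at 169 and 192 CPM against 261 and 227 CPM (0.46 ± 0.16, edgeR adjusted p = 0.18). *Psmb8* was at 6.59 and 8.46 CPM against 12 and 13.4 CPM (0.78 ± 0.20, edgeR adjusted p = 0.056). *Psmb9* was at 1.5 and 1.97 CPM against 2.63 and 3.46 CPM (0.83 ± 0.35, edgeR adjusted p = 0.28). In each of these genes both pools labelled Cre-Tat lay above both pools labelled vehicle. With 2 pools per group, such an order reaches a p of 0.333 at best in an exact permutation test (two-sided). Its share among all genes was not counted, so here and below a lack of overlap only describes the pools. At an unadjusted p under 0.05, 6 of the 10 genes and 2124 of the 14990 genes tested were counted, all 6 of them higher. The peptide transport genes and Qa-1 moved little. *Tap1* was at 14.3 and 15.8 CPM against 16.4 and 21.2 CPM, and its 95% interval on the log2 scale was -0.05 to 0.74. The interval was -0.21 to 0.51 for *Tap2*, -0.52 to 0.19 for *Tapbp* and -0.57 to 0.55 for *H2-T23*, so changes of the size of that of *H2-D1* lay outside these intervals. Single pools decided several calls. Without vehicle pool A, *H2-D1* had an adjusted p of 0.11 and *Nlrc5* alone was called. Without Cre-Tat pool B, *B2m* (adjusted p = 0.037) and *H2-K1* (adjusted p = 0.0033) were added to them, and without vehicle pool B *Psmb8* was added (adjusted p = 0.032, edgeR in each case).

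In 4V ChP, *Nlrc5* and *B2m* were higher in the pools labelled Cre-Tat. *Nlrc5* was at 1.62 and 1.75 CPM in the pools labelled vehicle and at 3.67 and 4.84 CPM in the pools of the other label, higher by 1.35 ± 0.32 on the log2 scale (edgeR adjusted p = 0.011). *B2m*, the light chain, was at 114 and 104 CPM against 192 and 138 CPM, a log2 fold change of 0.61 ± 0.16 (edgeR adjusted p = 0.017). The groups did not overlap for either gene, but the pools labelled Cre-Tat differed from each other by more than those labelled vehicle did. In all 2 of 10 genes rose and 0 fell, where 5.7% of the 14537 genes tested were called higher and 4.99% lower, and DESeq2 called the same pair. The median log2 fold change of the 10 genes was 0.33, against 0.01 for all genes tested. Scaled by library totals alone, the median of all genes moved to 0.15 and the split of calls from 828 higher and 726 lower to 1321 and 426.

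*H2-D1* was at 19 and 17.2 CPM against 29.7 and 21.9 CPM in 4V ChP (0.51 ± 0.18, edgeR adjusted p = 0.075), and *Psmb8* at 4.41 and 4.79 CPM against 9.23 and 6.19 CPM (0.75 ± 0.25, edgeR adjusted p = 0.067). Both missed the threshold, with no overlap between groups. *H2-K1* overlapped between groups, at 38.1 and 30.8 CPM against 50.1 and 27.8 CPM, and *Psmb9* was at 1.76 and 1.29 CPM against 2.32 and 2 CPM. *Tapbp* was the only member whose pools labelled Cre-Tat both lay below those labelled vehicle in 4V ChP, at 51.3 and 46.9 CPM against 55.4 and 63 CPM, and it was not called (edgeR adjusted p = 0.27). The intervals were -0.46 to 0.29 for *Tap1*, -0.18 to 0.43 for *Tap2* and -0.68 to 0.54 for *H2-T23*. Cre-Tat pool A was the higher pool for every heavy chain, *B2m* and *Psmb8*, and the calls moved with it. Without Cre-Tat pool A the adjusted p of *B2m* was 0.18 and *Nlrc5* alone was called, and without vehicle pool B it was 0.11. Without Cre-Tat pool B, *Nlrc5* was lost (adjusted p = 0.07) and *H2-K1* (0.017), *H2-D1* (0.0029) and *Psmb8* (0.0042) were gained, all with edgeR. When the counts of all transcripts of a gene were summed, *B2m* had an adjusted p of 0.051.

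**Figure D2:**
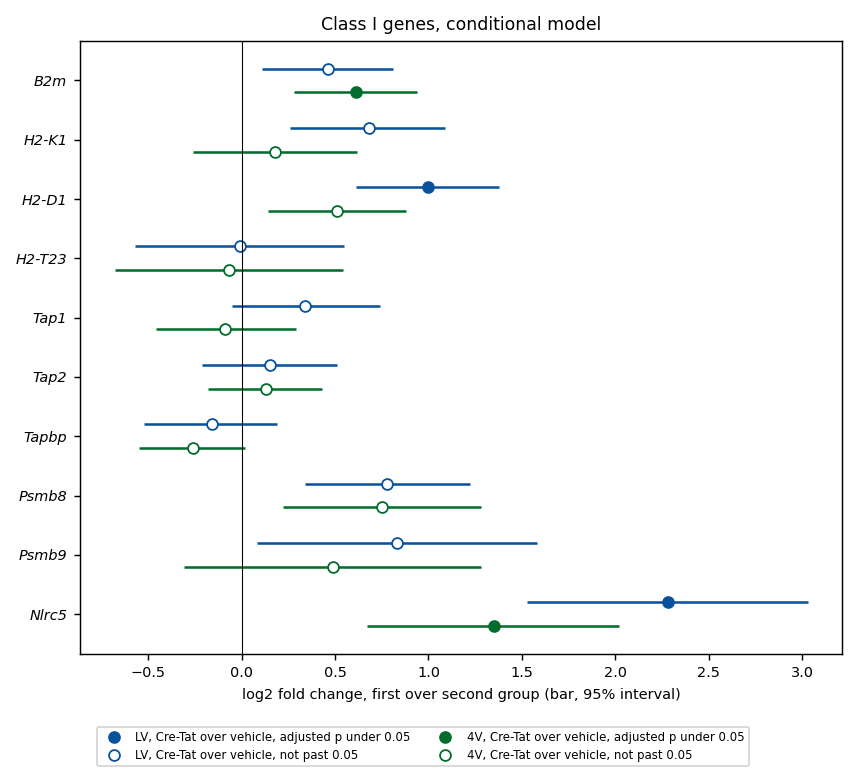
Log2 fold change of each class I gene, pools labelled Cre-Tat over pools labelled vehicle, in LV (blue) and 4V (green) ChP, with 95% intervals as bars and filled points where the edgeR adjusted p is under 0.05. The filled points are *H2-D1* and *Nlrc5* in LV ChP and *B2m* and *Nlrc5* in 4V ChP.

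Whether the label acted differently in the ventricles was tested as an interaction over the 8 pools. The fit did not pair LV with 4V pools, although these may come from the same mice. None of the 10 genes passed the threshold with edgeR, 0 of the 10 and 415 of all genes tested had an unadjusted p under 0.05 and DESeq2 called 0 of the 10, where 0.00643% of the 15552 genes tested were called, that is 1 gene. The difference of *Nlrc5*, LV minus 4V, was 0.94 ± 0.45 on the log2 scale with a 95% interval of -0.03 to 1.90, and that of *H2-D1* was 0.49 ± 0.26 with an interval of -0.07 to 1.04. A call of *H2-D1* in LV ChP and of *B2m* in 4V ChP is therefore not a shown difference between ventricles. Among pools labelled vehicle, *Nlrc5* was lower in both LV pools than in both 4V pools.

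The wider pathway was read from lists of genes named for their role. Among other class I heavy chains, 0 of 8 tested genes were called in LV ChP, and in 4V ChP *H2-M2* was the sole call of 10. Its level was under 1 CPM, at 16 and 13 reads in the pools labelled Cre-Tat and 1 and 0 in those labelled vehicle. *H2-M2* thus passed the filter on low counts only through the pools labelled Cre-Tat. The peptide loading and trimming genes had 0 calls of 13 in LV ChP and 3 lower calls of 13 in 4V ChP. These were *Calr*, the calreticulin chaperone (log2 fold change -0.66 ± 0.18), *Hspa5*, the main chaperone of the endoplasmic reticulum (-0.54 ± 0.17), and *Erap1*, the aminopeptidase that trims peptides (-0.49 ± 0.13). Of the inducible proteasome genes outside the 10, *Psmb10* was called in 4V ChP (4.26 against 7.19 CPM, 0.76 ± 0.23) and not in LV ChP, where it had a similar fold change (0.79 ± 0.24, edgeR adjusted p = 0.096). None of the 13 tested subunits of the constitutive 20S proteasome was called in either ventricle, with medians of 0.02 and -0.17. Among class I-like molecules, *Hfe*, whose product binds beta-2 microglobulin and acts in iron uptake, was lower in 4V ChP (67.5 against 47.9 CPM, -0.49 ± 0.15), the single call of 6, and 0 of 7 were called in LV ChP. Of the receptors of class I on lymphocytes, 1 of 8 passed the filter in each ventricle and it was not called.

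Among 12 genes for class I transcription, *Ciita*, the transactivator of class II genes and relative of *Nlrc5*, was the single call in each ventricle. It was higher by 1.69 ± 0.39 in LV and by 2.01 ± 0.43 in 4V ChP on the log2 scale. For 4V ChP, *Ciita* had 66 and 76 reads with the Cre-Tat label against 6 and 16 with the vehicle label. There it passed the filter on low counts only through the pools labelled Cre-Tat, so its 4V call adds no support to that in LV ChP. Of interferon-induced genes outside the 10, 8 of 21 rose in LV ChP and 7 of 20 in 4V ChP, and 0 fell. *Iigp1*, an interferon-induced GTPase, had a mean of 4.81 CPM against 26 CPM in LV ChP (2.46 ± 0.33) and 2.92 against 18 CPM in 4V ChP (2.69 ± 0.33). The other calls in LV ChP were *Gbp4* (1.85 ± 0.48), *Ifit1* (1.55 ± 0.28), *Gbp3* (1.32 ± 0.26), *Gbp2* (1.23 ± 0.23), *Igtp* (1.18 ± 0.25), *Irgm2* (1.00 ± 0.24) and *Irgm1* (0.85 ± 0.22), most of them GTPases that act against microbes inside cells. Those in 4V ChP were *Gbp4* (2.49 ± 0.55), *Irgm1* (1.02 ± 0.17), *Ifit1* (1.02 ± 0.28), *Gbp2* (0.98 ± 0.23), *Gbp7* (0.85 ± 0.18) and *Ly6e* (0.55 ± 0.16). The list had a median log2 fold change of 0.98 and 0.86, above that of the 10 class I genes. *Ifng*, which encodes gamma interferon, was at 0 or 1 read in every pool of the study. MHC class II genes, which present peptides on professional antigen-presenting cells, rose in 6 of 8 cases in each ventricle, with medians of 1.32 and 1.22. *Cd74*, the class II invariant chain, was at 47.4 against 117 CPM in LV ChP (1.32 ± 0.21) and 31.2 against 73.4 CPM in 4V ChP (1.24 ± 0.17). The class II chains *H2-Aa* (1.13 ± 0.17 and 1.24 ± 0.16), *H2-Ab1* (1.31 ± 0.24 and 1.21 ± 0.19), *H2-Eb1* (1.37 ± 0.18 and 1.21 ± 0.17) and *H2-Oa* (2.62 ± 0.58 and 2.62 ± 0.73) rose in both. *H2-DMa* was called in LV ChP (1.21 ± 0.26) and *H2-Ob* in 4V ChP (2.07 ± 0.63). *H2-Oa* averaged 0.273 against 1.68 CPM in LV and 0.166 against 1.05 CPM in 4V ChP, and *H2-Ob* 0.322 against 1.4 CPM in 4V ChP. In these cases both genes passed the filter on low counts only through the pools labelled Cre-Tat, so their calls add no support to those of the other class II genes.

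Markers of other cell types moved with these results, and fewer cells of a type cannot be told apart from less RNA per cell in bulk tissue. The summed level of 8 macrophage and microglia markers was 71.3 and 82.3 CPM in the LV pools labelled vehicle and 138 and 121 CPM in those labelled Cre-Tat. In 4V ChP it was 54 and 51.4 CPM against 114 and 82.9 CPM. Of these markers 4 of 8 rose in LV and 7 of 8 in 4V ChP, with none at 0 in any pool. *Ptprc*, the CD45 antigen of leukocytes, had log2 fold changes of 1.36 ± 0.22 and 1.60 ± 0.21, and *C1qa*, a complement gene of macrophages, of 1.06 ± 0.18 and 0.84 ± 0.21. The 7 B cell and plasma cell markers summed to 1.94 and 6.4 CPM against 67.3 and 12.8 CPM in LV ChP and to 1.4 and 2.03 CPM against 23.6 and 7.69 CPM in 4V ChP, mostly through *Jchain*, while the defining *Cd79a* was at 0 in 10 of 14 pools. The 9 T cell and NK cell markers summed to 2.42 to 2.57 CPM against 6 to 8.9 CPM in LV ChP and to 2.13 to 2.76 CPM against 4.19 to 5.07 CPM in 4V ChP. *Cd3g* was called in LV ChP, on 60 and 31 reads with the Cre-Tat label against 5 and 3 with the vehicle label. *Cd3g* thus passed the filter on low counts there only through the pools labelled Cre-Tat. *Cd3e* was at 0 in 5 of 14 pools. Dendritic cell markers had 2 calls of 3 in 4V ChP (*Cd209a* and *Flt3*), where *Cd209a* averaged 0.0735 against 1.44 CPM. *Flt3* averaged 0.175 against 1.3 CPM, and both genes passed the filter on low counts only through the pools labelled Cre-Tat. Neutrophil markers stood out in Cre-Tat 4V pool A, where they summed to 17.2 CPM against 0.898 CPM in pool B, and *Ly6g* was at 0 in all 14 pools. Of 8 epithelial markers, 2 were called lower in LV ChP (*Aqp1* and *Kcnj13*) and 7 in 4V ChP, and *Otx2* was called higher in both. *Ttr* had an adjusted p of 0.077 in LV ChP and *Folr1* of 0.41 (edgeR), while both were among the lower calls in 4V ChP. *Ttr* made up most of the summed level, being at 180106 and 187842 CPM against 95374 and 133377 CPM in LV ChP. The sum was 187854 and 197023 CPM against 101620 and 139724 CPM in LV ChP, and 173677 and 145720 CPM against 77910 and 65914 CPM in 4V ChP. Ependymal markers had 2 higher calls of 5 in each ventricle, among them the cilia regulator *Foxj1* (0.80 ± 0.16 and 0.98 ± 0.14). Fibroblast markers had 1 higher call (*Col1a2*) and 1 lower call (*Pdgfra*) of 6 in each ventricle, and astrocyte markers 1 higher and 1 lower call of 5 in LV and 3 higher and 1 lower in 4V ChP. Endothelial markers had 0 and 1 calls of 7 (*Plvap*), mural markers 0 of 6 in both, and neuron markers 1 higher call of 4 (*Snap25*) and 1 lower call of 2 (*Syt1*). Oligodendrocyte markers had 0 calls, and 0 of 5 erythroid markers passed the filter. Over all 14 pools the defining markers ranged from 11.3 to 26.8 CPM for *Csf1r* and 8.93 to 30 for *C1qa* (macrophages), 15.2 to 52.3 for *Pecam1* and 11 to 37.7 for *Cdh5* (endothelium), 152 to 390 for *Rgs5* and 4.19 to 12.8 for *Kcnj8* (mural cells), and 158 to 455 for *Dcn* and 35 to 250 for *Lum* (fibroblasts). They ranged from 77.6 to 187 CPM for *Foxj1* and 0 to 0.484 for *Tmem212* (ependyma), 8.33 to 46.9 for *Aqp4* and 4.51 to 31.1 for *Gfap* (astrocytes), 0 to 0.394 for *Rbfox3* and 1.93 to 11 for *Snap25* (neurons), and 16.3 to 47.7 for *Mbp* (oligodendrocytes). *Flt3* ranged from 0.0735 to 1.54 CPM (dendritic cells), *Cd3e* from 0 to 0.324 and *Cd3g* from 0.0523 to 2.43 (T cells), *Cd79b* from 0 to 0.728 (B cells), *S100a8* from 0 to 3.94 and *S100a9* from 0 to 9.23 (neutrophils), and *Hba-a1* and *Hba-a2* stayed under 1 CPM (erythroid cells). The part of these cell types in the class I levels was not tested.

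**Figure D3:**
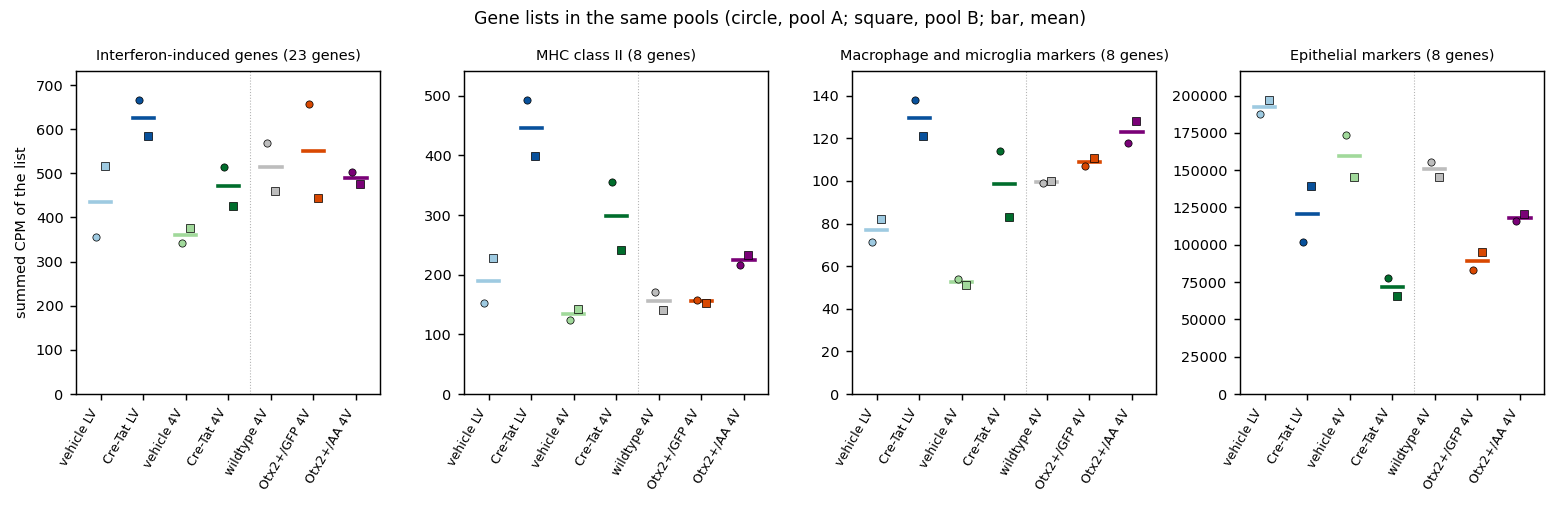
Summed CPM of the interferon-induced genes (23 genes), MHC class II (8 genes), macrophage and microglia markers (8 genes) and epithelial markers (8 genes) in each pool, with pool A as a circle, pool B as a square and the mean as a bar. Pools labelled Cre-Tat lie above pools labelled vehicle of the same ventricle in the first 3 panels and below them in the last, and class II spans 124 to 228 CPM in vehicle and 242 to 493 CPM in Cre-Tat pools.

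In the constitutive model, none of the 10 class I genes was called between *Otx2*+/GFP and wildtype 4V ChP with edgeR or with DESeq2 when all 4 pools were fitted without a block on the pool letter, where 3.53% of the 14561 genes tested were called. These calls were 260 higher and 254 lower, and 320 and 211 when scaled by library totals. At an unadjusted p under 0.05, 2 of the 10 genes and 2697 of the 14561 genes tested were counted, the 2 being the classical heavy chains, both lower. *H2-K1* was at 39.4 and 28.3 CPM in wildtype and at 27.9 and 23.2 CPM in *Otx2*+/GFP (-0.40 ± 0.18, edgeR adjusted p = 0.27). *H2-D1* was at 36.1 and 31 CPM against 24.5 and 28.3 CPM (-0.34 ± 0.14, edgeR adjusted p = 0.24). *B2m* was at 195 and 164 CPM against 162 and 136 CPM, and its 95% interval was -0.58 to 0.04 on the log2 scale. Wildtype and *Otx2*+/GFP pools did not overlap for these genes. *Nlrc5* was at 1.88 and 1.91 CPM against 2.13 and 2.31 CPM (0.23 ± 0.30, interval -0.45 to 0.91). *Psmb8* was at 11.3 and 9.05 CPM against 8.79 and 8.61 CPM, and *Psmb9*, *Tap1*, *Tap2* and *H2-T23* overlapped between groups. The median log2 fold change of the 10 genes was -0.17. Without wildtype pool B, *H2-K1* was called lower (-0.63, edgeR adjusted p = 0.031). Of the lists, interferon-induced genes had 0 calls of 22 and class II 0 of 7, and *Ifnar2*, a type I interferon receptor chain, was lower (-0.70 ± 0.11). Macrophage markers summed to 99 and 100 CPM in wildtype and 107 and 111 CPM in *Otx2*+/GFP, with *Mrc1* as the single call of 8. Epithelial markers had 3 lower calls of 8 besides *Otx2*, and their sum, again mostly *Ttr*, was 155614 and 145481 CPM against 83239 and 95007 CPM. Astrocyte and fibroblast markers had 2 higher calls each (*Aqp4*, *Slc1a3*, *Col1a2* and *Col3a1*), and their part in the class I levels was not tested.

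The change in the conditional model was set against that in *Otx2*+/GFP by an interaction over 8 pools of 4V ChP. No class I gene passed the threshold with edgeR, where 1.61% of the 15314 genes tested were called (120 higher and 127 lower, or 166 and 93 when scaled by library totals, which moved the median of all genes to 0.12), while 4 of the 10 genes and 1983 of all genes tested had an unadjusted p under 0.05. The differences were 0.87 ± 0.23 for *B2m* (edgeR adjusted p = 0.094), 0.84 ± 0.23 for *H2-D1* (0.11), 0.97 ± 0.31 for *Psmb8* (0.18) and 1.11 ± 0.41 for *Nlrc5* (0.26). All 4 were higher in the conditional model. DESeq2 called *B2m* with an adjusted p of 0.017, as edgeR did with total counts (0.029) and without the filter on low counts (0.00094). Without Cre-Tat pool B, *B2m* (0.023) and *H2-D1* (0.041) were called. In the same fit *Cd74* (1.28 ± 0.25), *H2-Aa* (1.17 ± 0.24), *H2-Ab1* (1.27 ± 0.28) and *Iigp1* (2.35 ± 0.52) passed the threshold, as did the leukocyte and macrophage markers *Ptprc* (1.25 ± 0.27) and *C1qa* (1.20 ± 0.27).

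Between *Otx2*+/AA and wildtype no class I gene passed the threshold. *H2-D1* was at 36.1 and 31 CPM in wildtype and at 17.5 and 23.4 CPM in *Otx2*+/AA (-0.71 ± 0.17, edgeR adjusted p = 0.1). *H2-K1* was at 39.4 and 28.3 CPM against 50.5 and 43.2 CPM (0.47 ± 0.16, edgeR adjusted p = 0.34), and *B2m* at 195 and 164 CPM against 133 and 149 CPM (-0.35 ± 0.14, edgeR adjusted p = 0.44). Groups did not overlap for these genes. None of the 10 was called with edgeR or DESeq2, where 0.345% of the 14482 genes tested were called, and these 3 had an unadjusted p under 0.05, as did 1289 of all genes tested. Leaving out wildtype pool B (adjusted p = 0.0094) or *Otx2*+/AA pool B (0.033) gave a call of *H2-D1* with edgeR. Scaled by library totals, the median of all genes moved to 0.11 and the calls from 25 higher and 25 lower to 28 and 10. Of the companion genes, *Pdia3*, a chaperone of the loading complex, was lower (209 against 121 CPM, -0.79 ± 0.14) and the class II gene *H2-Eb1* was higher (25.1 against 45 CPM, 0.84 ± 0.16). *Otx2*+/AA was then compared with *Otx2*+/GFP directly, after these values had been seen. *H2-K1* was higher in *Otx2*+/AA, at 50.5 and 43.2 CPM against 27.9 and 23.2 CPM (0.88 ± 0.15, edgeR adjusted p = 0.0089), and it was the single class I call, where 2.7% of the 14566 genes tested were called. DESeq2 also called it, and it was called without each of the 4 pools. Scaled by library totals, the calls over all genes moved from 194 higher and 199 lower to 294 and 183. In this contrast the companion calls were *H2-Q10* (-2.67 ± 0.56), the interferon-induced *Usp18* (-2.05 ± 0.49) and the class II genes *H2-DMb1* (1.57 ± 0.27) and *H2-Eb1* (0.66 ± 0.14), while macrophage markers had 0 calls of 8. *H2-Q10* had 3 and 18 reads in *Otx2*+/AA and 49 and 83 in *Otx2*+/GFP, and passed the filter on low counts only through the *Otx2*+/GFP pools.

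The ratio of *H2-K1* to *H2-D1* within a library, per length of transcript, is free of the scaling between libraries. It was 1.22 and 1.02 in the wildtype pools, 1.27 and 0.92 in the *Otx2*+/GFP pools and 3.23 and 2.07 in the *Otx2*+/AA pools. The ratio in *Otx2*+/AA thus lay above that of both other groups of the constitutive model in each pool. In the conditional model it was 2.02 and 1.92 in LV vehicle, 1.74 and 1.39 in LV Cre-Tat, 2.24 and 2.01 in 4V vehicle and 1.89 and 1.42 in 4V Cre-Tat pools. The ratio was lower in pools labelled Cre-Tat than in pools labelled vehicle in each ventricle. The smallest p that an exact permutation test (two-sided) can give for such a ratio, with 2 pools per group, is 0.333. A further MHC gene had fewer reads in both *Otx2*+/AA pools than in the other pools of the constitutive model. *H2-Ea-ps*, the class II alpha chain locus that C57BL/6 mice and others of the b haplotype do not express, was singled out after its values were seen. It was at 0 reads in all 8 pools of the conditional model, at 157 and 122 reads in wildtype, at 182 and 233 reads in *Otx2*+/GFP and at 4 and 92 reads in *Otx2*+/AA. *H2-Ea-ps* was not called in *Otx2*+/AA against *Otx2*+/GFP (-2.12 ± 0.64, edgeR adjusted p = 0.13) or against wildtype (-1.64 ± 0.65, edgeR adjusted p = 0.44). The pool with the fewest *H2-Ea-ps* reads in the constitutive model, *Otx2*+/AA pool A, also had the highest ratio of *H2-K1* to *H2-D1*. *H2-Q10*, a class I gene, followed with 80 and 48 reads in wildtype, 49 and 83 in *Otx2*+/GFP, 3 and 18 in *Otx2*+/AA, and 0 or 1 in each conditional pool. Between *Otx2*+/AA and wildtype it was not called (edgeR adjusted p = 0.063). B6D2 names a cross of C57BL/6 and DBA/2 mice, which differ in their MHC haplotype, and the reads were aligned to the mm10 genome of C57BL/6. The part of MHC haplotype in the heavy chain levels was not tested.

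**Figure D4:**
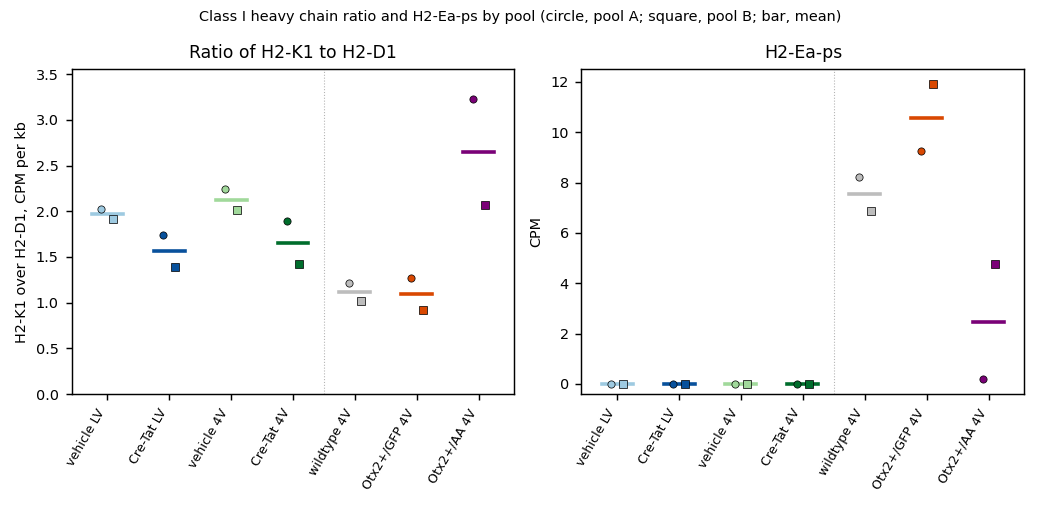
Left, ratio of *H2-K1* to *H2-D1* in CPM per kilobase, and right, level of *H2-Ea-ps* in CPM, for each of the 14 pools (circle, pool A; square, pool B; bar, mean). The *Otx2*+/AA pools have the highest mean ratio (3.23 and 2.07), and *H2-Ea-ps* is at 0 in all 8 conditional pools and at 0.188 and 4.75 CPM in *Otx2*+/AA.

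**Figure D5:**
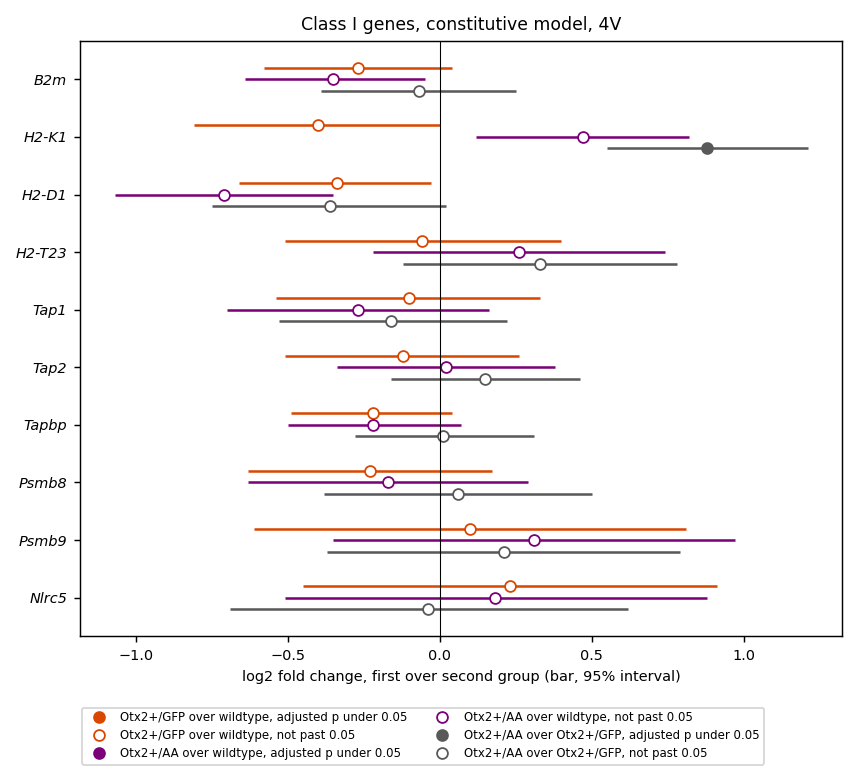
Log2 fold change of each class I gene between groups of the constitutive model, with 95% intervals as bars and filled points where the edgeR adjusted p is under 0.05. The single filled point is *H2-K1* in *Otx2*+/AA over *Otx2*+/GFP at 0.88, and the first 2 contrasts share the wildtype pools.

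The ventricles were compared in the pools labelled vehicle, which also serve as controls of the Cre-Tat comparisons. Whether the same mice gave LV and 4V tissue to pools of one letter is not stated. *B2m* was higher in LV ChP, at 169 and 192 CPM against 114 and 104 CPM in 4V ChP (0.70 ± 0.12, edgeR adjusted p = 0.0036). It was the single call of 10, with DESeq2 too, where 3.49% of the 14548 genes tested were called higher and 4% lower in LV ChP. Scaled by library totals, the median of all genes moved to -0.18 and the split of calls from 508 higher and 582 lower to 252 and 1226, and *B2m* was still called. Without 4V vehicle pool B its adjusted p was 0.053. Without LV vehicle pool A, *H2-T23* (0.035), *Tapbp* (0.034) and *Psmb8* (0.024) were added. In the fit of all 4 pools *Psmb8* was at 6.59 and 8.46 CPM against 4.41 and 4.79 CPM (0.68 ± 0.23, edgeR adjusted p = 0.096) and *Tapbp* at 70.7 and 84.5 CPM against 55.4 and 63 CPM (0.36 ± 0.13, edgeR adjusted p = 0.1). *Nlrc5* was lower in both LV pools than in both 4V pools (-0.90 ± 0.44, edgeR adjusted p = 0.25). *H2-K1*, *Tap2* and *Psmb9* overlapped between ventricles. Among the companion genes, *Tapbpl*, a relative of tapasin (0.78 ± 0.19), *Erap1* (0.46 ± 0.12), *Ifit3* (2.12 ± 0.54) and *Ly6e* (1.44 ± 0.16) were higher in LV ChP. *Igtp* (-1.30 ± 0.22), *Irgm2* (-1.32 ± 0.20), *Rfxap* (-0.73 ± 0.15), *Nfyc* (-0.90 ± 0.25) and *Psmb3* (-1.32 ± 0.34) were lower, and *H2-M9* was at 0 in both LV pools and averaged 0.754 CPM in 4V ChP. *H2-M9* thus passed the filter on low counts only through the 4V pools. Class II genes had 0 calls of 6. Macrophage markers summed to 71.3 and 82.3 CPM in LV and 54 and 51.4 CPM in 4V ChP with 1 call of 8 (*Csf1r*), and endothelial markers, of which 2 of 7 were higher in LV ChP, to 209 and 252 CPM against 139 and 159 CPM. Their part in the level of *B2m* was not tested.

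Over the 8 pools of the conditional model, the members were compared with each other by Pearson's r between the log2 CPM of a gene and the mean profile of the other 9, as a description of pools that share libraries and groups. The value was 0.96 for *Psmb8*, 0.92 for *H2-D1*, 0.90 for *B2m*, 0.83 for *Tap1*, 0.82 for *Tap2* and *Psmb9*, 0.79 for *H2-K1*, 0.71 for *H2-T23*, 0.37 for *Tapbp* and 0.28 for *Nlrc5*. *Nlrc5* and *Tapbp* thus followed the rest least, and *Tapbp* did not rise in pools labelled Cre-Tat. *Nlrc5* was lowest in the LV vehicle pools. It was high in 4V Cre-Tat pool B (4.84 CPM), where the mean standardised profile of the 10 genes was low (-0.64). Of 13473 genes with a mean of at least 1 CPM, those outside all lists whose profile was most like the mean of the 10 were *Jpt1* (r = 0.967), *Art3* (0.967), *Adgrl2* (0.965), *Gm12251* (0.959) and *Thy1* (0.958). *Thy1*, a surface glycoprotein of T cells, neurons and fibroblasts, averaged 0.793 CPM in LV vehicle, 2.03 in LV Cre-Tat, 0.359 in 4V vehicle and 0.895 in 4V Cre-Tat pools.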

How the data were processed

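RNA-seq counts of 14 pools (22 files) were used. The authors deposited raw counts per Ensembl transcript, made per the labels with bcl2fastq 1.8.4, Bowtie 0.12.9, SAMtools and HTSeq 0.5.3 on mm10 from 50-base reads, with DESeq 1.8.3 also named; the counting mode and strand setting are not given in the sources used here. The labels state depletion of ribosomal RNA and a strand-specific kit, while the methods state PolyA+ RNA. The 2 runs of each conditional pool were summed after joining files by library number. Of 95533 transcripts, 82807 matched GENCODE vM21, holding 89.5% of counts, and 12726 were left out. Reads overlapping several transcripts of a gene appear in each, so each of 33964 genes was given by its transcript with most counts; design and alternatives had been written for counts per gene.

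Genes were tested with edgeR 4.0.16 (R 4.3.3; filterByExpr, TMM, quasi-likelihood test) and Benjamini-Hochberg adjustment at 0.05, fitting the groups of each comparison. SE is the log2 fold change over the square root of F. DESeq2 1.42.0, its size factors, total counts, other filters, a block on the pool letter, all groups of a run, summed transcripts, files as attached and each pool left out were alternatives. Tables used Python 3.11 tools. The procedure was tested on simulated data. Within a ventricle, conditional pools hold different mice, while LV and 4V pools may share mice. For the constitutive model it is not stated whether pools hold different mice, so p-values there measure only a spread that may be technical. Named genes were the 10 members, called genes of the companion lists, the defining markers of each cell type, and the 5 genes most like the members; some genes under this rule are not reported here. Members and lists were chosen with earlier results of these data known. Depth sets counting error only; the biological coefficient of variation was 0.114 to 0.152.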

Additional observations from a re-analysis of the deposited data

Results flagged for a closer look

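*H2-K1* differed between the *Otx2*+/AA and the *Otx2*+/GFP group, which were each set against the same wildtype pools. The direct test, added after the values were seen, gave a log2 difference of 0.88 ± 0.15 (edgeR adjusted p = 0.0089), and both *Otx2*+/AA pools lay above both *Otx2*+/GFP pools. Leaving out any 1 of the 4 pools gave a difference of 0.76 to 1.01. *H2-Ea-ps* had fewer reads in both *Otx2*+/AA pools, as given beside the result, but was not called in this contrast (edgeR adjusted p = 0.13). The part of *H2-Ea-ps* was not tested.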

How the results depend on the processing

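Of the values of single genes under the alternatives, 921 kept direction and side of the threshold, 58 gained a call, 6 lost one and 81 changed sign, and for each that did not, the cause was not tested unless the alternative's own construction shows it. The count of class I genes called in LV ChP (2) was 4 without the filter and 4 with the replicate block, and 1 to 4 with a pool left out. In 4V ChP (2) it was 4 with total counts, 4 without the filter, 4 with the replicate block, 1 with summed transcripts, and 1 to 4 with a pool left out. For *Otx2*+/GFP (0) it was 2 with the block (*H2-D1* and *H2-K1*, lower) and 0 to 1 with a pool left out. For *Otx2*+/AA (0) it was 1 without the filter, 2 with the block and 0 to 1 with a pool left out. Between ventricles (1) it was 2 without the filter, 3 with the block and 0 to 4 with a pool left out. For the interaction with model (0) it was 1 with DESeq2, 1 with total counts, 2 without the filter, 1 with the block and 0 to 2 with a pool left out. Summed over all genes, LV calls (486) were 872 without the filter and 325 to 736 with a pool left out (736 without Cre-Tat pool B). 4V calls (1554) were 3117 with the block and 890 (without vehicle pool A) to 1666. *Otx2*+/GFP calls (514) were 2522 with the block and 402 to 880. *Otx2*+/AA calls (50) were 122 with DESeq2, 390 without the filter, 547 with the block, 18 with all groups of the run, 22 with summed transcripts and 35 to 374. Calls of *Otx2*+/AA against *Otx2*+/GFP (393) were 248 with summed transcripts and 402 to 787. Ventricle calls (1090) were 1838 without the filter, 2277 with the block, 715 with all groups and 408 to 1969. Calls of the interaction with ventricle (1) were 5 with DESeq2, 31 without the filter, 0 at a mean count above 10, 2 with the block, 0 with summed transcripts and 0 to 3, and those of the interaction with model (247) were 374, 626, and 80 to 246 with DESeq2, without the filter and with a pool left out.

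Files as attached, which mix pools, called 7 class I genes in LV ChP, 9 in 4V ChP, 3 between ventricles and 7 in each interaction, and 6705, 8741, 4715, 5246 and 4681 of all genes. They reversed *Psmb9* (-0.00), *Nlrc5* (-0.15), *Tapbp* (0.33) and *H2-T23* (0.45) in LV ChP, *Nlrc5* (-0.34), *Tapbp* (0.55), *Tap1* (0.63) and *H2-T23* (0.84) in 4V ChP, *Tap2* (-0.20), *Tapbp* (-0.23), *H2-D1* (-0.29), *H2-T23* (-0.39), *H2-K1* (-0.42), *Tap1* (-0.43), *Psmb8* (-0.57) and *Psmb9* (-0.64) in the interaction with ventricle, and *Nlrc5* (-0.58), *Tapbp* (0.77) and *H2-T23* (0.89) in that with model. Total counts reversed *Tapbp* (0.01) and *H2-T23* (0.17) in LV ChP, *Tap1* (0.06) and *H2-T23* (0.07) in 4V ChP, *Tap1* (-0.02), *H2-K1* (-0.04), *Psmb9* (-0.05) and *Tap2* (-0.08) between ventricles, and *Tapbp* (0.06) and *H2-T23* (0.08) in the interaction with model. *H2-T23* in LV ChP was 0.02 with the replicate block, 0.02 with its protein-coding transcript and 0.01 with summed transcripts, *Psmb9* in the interaction with ventricle was -0.05 with its protein-coding transcript, and *Tap1* in that with model was -0.07 with its protein-coding transcript, -0.01 with the block and -0.07 with summed transcripts. Of all these reversed values, *Nlrc5* in LV and in 4V ChP was called in the fit reported, and it reversed with files as attached. With a pool left out, signs changed in LV ChP for *H2-T23* (-0.31 to 0.35), in 4V ChP for *H2-K1* (-0.32 to 0.55), *H2-T23* (-0.25 to 0.10) and *Tap1* (-0.21 to 0.03), for *Otx2*+/GFP in *H2-T23* (-0.23 to 0.13), *Psmb9* (-0.20 to 0.45), *Tap1* (-0.34 to 0.17) and *Tap2* (-0.37 to 0.16), for *Otx2*+/AA in *Psmb8* (-0.41 to 0.05), *Tap1* (-0.50 to 0.01) and *Tap2* (-0.21 to 0.30), between ventricles in *Psmb9* (-0.06 to 0.41) and *Tap2* (-0.02 to 0.23), in the interaction with ventricle for *B2m* (-0.36 to 0.12), *H2-T23* (-0.23 to 0.42), *Psmb8* (-0.23 to 0.36), *Tap2* (-0.12 to 0.17) and *Tapbp* (-0.03 to 0.23), and in that with model for *H2-T23* (-0.20 to 0.15), *Tap1* (-0.26 to 0.24), *Tap2* (-0.03 to 0.48) and *Tapbp* (-0.13 to 0.04).

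The pool letters A and B are shared only as letters. Deviations of same-letter pools correlated at -0.13 in LV ChP, 0.14 in 4V ChP, 0.35 for *Otx2*+/GFP, 0.076 for *Otx2*+/AA and 0.066 between ventricles, and the block results above rest on that. With letters crossed in LV ChP, a choice made after seeing the data, 5 class I genes and 995 of all genes were called. A fit of all groups of a run is the reported fit for the interaction with ventricle. Depth limits the members with few reads, which in the 4V pools labelled vehicle were *Psmb8* (60 and 52 reads), *H2-T23* (44 and 44), *Psmb9* (24 and 14) and *Nlrc5* (22 and 19).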
